A study of Mus musculus with 46 samples.

Results

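A set of membrane and calcium-handling genes of absorptive endoderm were followed through 46 RNA sequencing libraries of mouse cells. The genes are *Aqp8* and *Aqp3*, *Clic5* and *Clic6*, *S100g*, *Slc39a4*, *Cldn2* and *Abcc2*, 8 of the 21812 genes in each of 6 count tables and of the 21793 used from a seventh. They were taken by symbol and selected on what they encode and on their measured differences between groups, several of which had been large in these tables. Their differences in level between groups are therefore given as a description, with standard errors and without p-values, and the share of all genes past the same threshold stands beside each first count of members called. How many of all genes had groups without overlap was not counted, so a lack of overlap is a description too. Adjusted p-values are given for their decay slopes. The slopes use libraries that were in view when the members were chosen, so these p-values are not independent of the choice.

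Primitive endoderm is the layer that lines the blastocyst cavity, and part of it becomes visceral endoderm, an epithelium that wraps the epiblast and takes up nutrients for the embryo. Absorptive epithelia of this kind carry water channels, ion channels, metal importers and export pumps in their membranes, soluble proteins that buffer calcium, and claudins that set what passes between the cells. *Aqp8* and *Aqp3* encode a water channel and a water and glycerol channel, *Clic5* and *Clic6* encode proteins of the intracellular chloride channel family, and *S100g* encodes calbindin-D9k, a cytosolic calcium-binding protein of the intestinal epithelium. *Slc39a4* encodes the zinc importer ZIP4, *Abcc2* encodes an apical export pump for conjugated organic anions, and *Cldn2* encodes a claudin that forms a pore for cations and water in tight junctions.

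The starting cells were EPSCs, extended pluripotent stem cells, called EPS in the actinomycin D experiment. Cells in a medium that induces primitive endoderm (PrEdiff) were compared as *Virma* cKO against WT, *Mettl3* cKO against WT, and siIgf2bp3 against the control siRNA siNC, with 2 libraries in each group. *Virma* and *Mettl3* encode parts of the complex that writes N6-methyladenosine (m6A) into mRNA, and *Igf2bp3* encodes an RNA-binding protein that reads it. After the same induction, CD140+ cells (PrE-E) were set against CD140- cells (EPI-E), with 2 libraries each. Embryoids made from EPSCs and GBL-1 cells were separated into visceral endoderm (VE) and epiblast (EPI) at 5 days, with 6 libraries each. PrEdiff and EPS cells were also sequenced at 0, 1, 2 and 3 h after adding actinomycin D, which blocks transcription, with 2 libraries for each state and time, and 2 EPSC libraries form a table of their own. The time of induction, the Cre driver, the number of clones and whether libraries of a group came from separate cultures are not stated in the labels, so a p-value measures a spread that may be technical. Whole populations were sequenced, so fewer cells of a type and less RNA per cell cannot be told apart.

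Total counts ran from 6854433 to 22280769 per library. Levels are CPM (counts divided by the library total and put on a common scale), scaled by the trimmed mean of M-values (TMM) within each table. *Virma* averaged 61.1 ± 9.25 CPM in *Virma* cKO and 108 ± 2.19 CPM in WT libraries (SD, n = 2 each). *Mettl3* averaged 36.0 ± 1.57 CPM in libraries labelled *Mettl3* cKO and 36.3 ± 1.55 CPM in WT libraries, and *Igf2bp3* averaged 114 ± 4.10 CPM in libraries labelled siIgf2bp3 and 106 ± 10.3 CPM in siNC libraries (SD, n = 2 each). A whole-gene count can miss a deletion of some exons, but for both these genes the counts do not bear out the label, so the directions below belong to libraries labelled as such. Sums of 12 markers of primitive and visceral endoderm ran from 16093 to 16399 CPM in PrE-E and 250.0 to 257 CPM in EPI-E libraries, and from 13525 to 14297 CPM in embryoid VE and 435 to 628 CPM in embryoid EPI libraries. Sums of 6 markers of parietal endoderm ran from 20234 to 20332.5 CPM in PrE-E and 173 to 196 CPM in EPI-E libraries. They ran from 4277 to 4589 CPM in embryoid VE and 236 to 289 CPM in embryoid EPI libraries. All parietal markers tested were called higher in PrE-E (6) and in embryoid VE (5), so both groups held markers of both lists. Of 8 markers of gut and intestine, *Alpi* and *Tff3* had 0 counts in both the PrE-E and the embryoid VE libraries, and the sum over all 8 was at most 3.57 CPM in any library of those endoderm groups. Both genes also had 0 counts in EPI-E, EPSC and 0 h EPS libraries, so their absence is not particular to endoderm. The 8 summed to more in unsorted cultures: 91.7 to 98.6 CPM in PrEdiff and 113 to 114 CPM in EPS at 0 h. Sums were 96.1 to 97.8 CPM in *Mettl3* WT, 112 to 113 CPM in *Mettl3* cKO, 32.1 to 42.3 CPM in siNC and 43.1 to 43.4 CPM in siIgf2bp3 libraries.

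Promoters of 3 members are shown because *S100g* and *Aqp8* were high in endoderm libraries whereas *Aqp3* was not. Each runs from 250 bases before to 50 bases after the RefSeq start site of build GRCm38.p6, written 5′ to 3′ on the strand of the gene. The *S100g* window is chrX:162964550-162964849 on the minus strand, the *Aqp8* window chr7:123462044-123462343 on the plus strand, and the *Aqp3* window chr4:41098134-41098433 on the minus strand. Capitals mark the motif letters searched on both strands: TGTTTAC (FOXA, seen here as its reverse complement), a GATA site (seen here as a reverse complement, and spelled AGATAA or, as variants of it, TGATAA, further AGATAG and finally TGATAG) and TATAAA.
S100g: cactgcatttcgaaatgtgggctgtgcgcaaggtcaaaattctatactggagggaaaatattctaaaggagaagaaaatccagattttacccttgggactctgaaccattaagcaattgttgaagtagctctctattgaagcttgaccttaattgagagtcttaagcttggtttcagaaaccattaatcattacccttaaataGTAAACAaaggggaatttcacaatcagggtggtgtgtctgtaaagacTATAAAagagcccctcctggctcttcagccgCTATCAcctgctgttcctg
Aqp8: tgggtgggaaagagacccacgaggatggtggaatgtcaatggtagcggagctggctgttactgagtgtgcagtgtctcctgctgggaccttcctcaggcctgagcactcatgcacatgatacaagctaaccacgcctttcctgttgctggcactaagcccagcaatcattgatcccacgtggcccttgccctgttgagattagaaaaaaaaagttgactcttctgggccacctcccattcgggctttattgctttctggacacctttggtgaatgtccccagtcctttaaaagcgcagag
Aqp3: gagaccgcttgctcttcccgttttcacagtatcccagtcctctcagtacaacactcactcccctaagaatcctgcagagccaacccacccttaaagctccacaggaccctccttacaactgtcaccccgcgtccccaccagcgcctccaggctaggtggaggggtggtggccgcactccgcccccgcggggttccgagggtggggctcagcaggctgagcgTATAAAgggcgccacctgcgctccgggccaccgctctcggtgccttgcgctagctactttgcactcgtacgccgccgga

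The *S100g* window held the FOXA letters 47 bases before the start site, on the strand opposite the gene, and a GATA site 31 bases after it, also on the opposite strand. It also held TATAAA on the strand of the gene, beginning at the annotated start site itself. Of 32841 RefSeq promoters, 3.65% held the FOXA letters, 29.8% a GATA site and 13.6% TATAAA. The *Aqp3* window held TATAAA 29 bases before the start, and none of these letters, nor CATTGT (SOX) or GTTAAT (part of an HNF1 site), occurred in the *Aqp8* window. Of the 8 members 6 had a RefSeq promoter entry, and *Clic6* and *Slc39a4* are named only. Among windows not shown, that of *Clic5*, which like *S100g* was highest in PrE-E, held none of these letters. The *Abcc2* window held a GATA site 151 bases before the start, on the strand of the gene. The *Cldn2* window held TATAAA 35 bases before the start. The letters thus did not follow the levels of the members. GC content of the window was 41.0% for *S100g*, 52.0% for *Aqp8* and 64.0% for *Aqp3*, beside a median of 52.7% over all promoters. Such matches describe letters and show no binding.

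In the transcripts, GGACT, a frequent form of the sequence that carries m6A, occurred 0 times in the coding sequence and 3′ UTR of *S100g* and 4 times (1.88 per kb) in those of *Slc39a4*. The other members held 0.768 to 1.52 per kb, and the median over 21894 genes was 0.996 per kb. The longest 3′ UTR belonged to *Clic5*, with 4794 nt, and the shortest, of 147 nt, to *S100g* and *Slc39a4*, beside a median of 732.5 nt. By the GENCODE annotation of GRCm38, *Aqp8* lies at chr7:123462291-123468004, *S100g* at chrX:162961992-162964599, *Clic6* at chr16:92485736-92541243 and *Clic5* at chr17:44188584-44280172, and no exon of any of the 8 genes overlaps an exon of another gene.

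Endoderm libraries held far more RNA of most of these genes than the epiblast libraries beside them, but each gene had its own place in the series. *Aqp8* was highest in embryoid VE, at 690 ± 17.0 CPM (SD, n = 6), and had 0 counts in both EPI-E libraries. *Clic6*, *Slc39a4* and *Abcc2* were also highest in embryoid VE, whereas *S100g* and *Clic5* were highest in PrE-E. *Aqp3* was highest in the siIgf2bp3 and siNC libraries and lowest in the embryoids. *Cldn2* had 35 counts in all, in 10 of the 46 libraries.

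**Figure D1:**
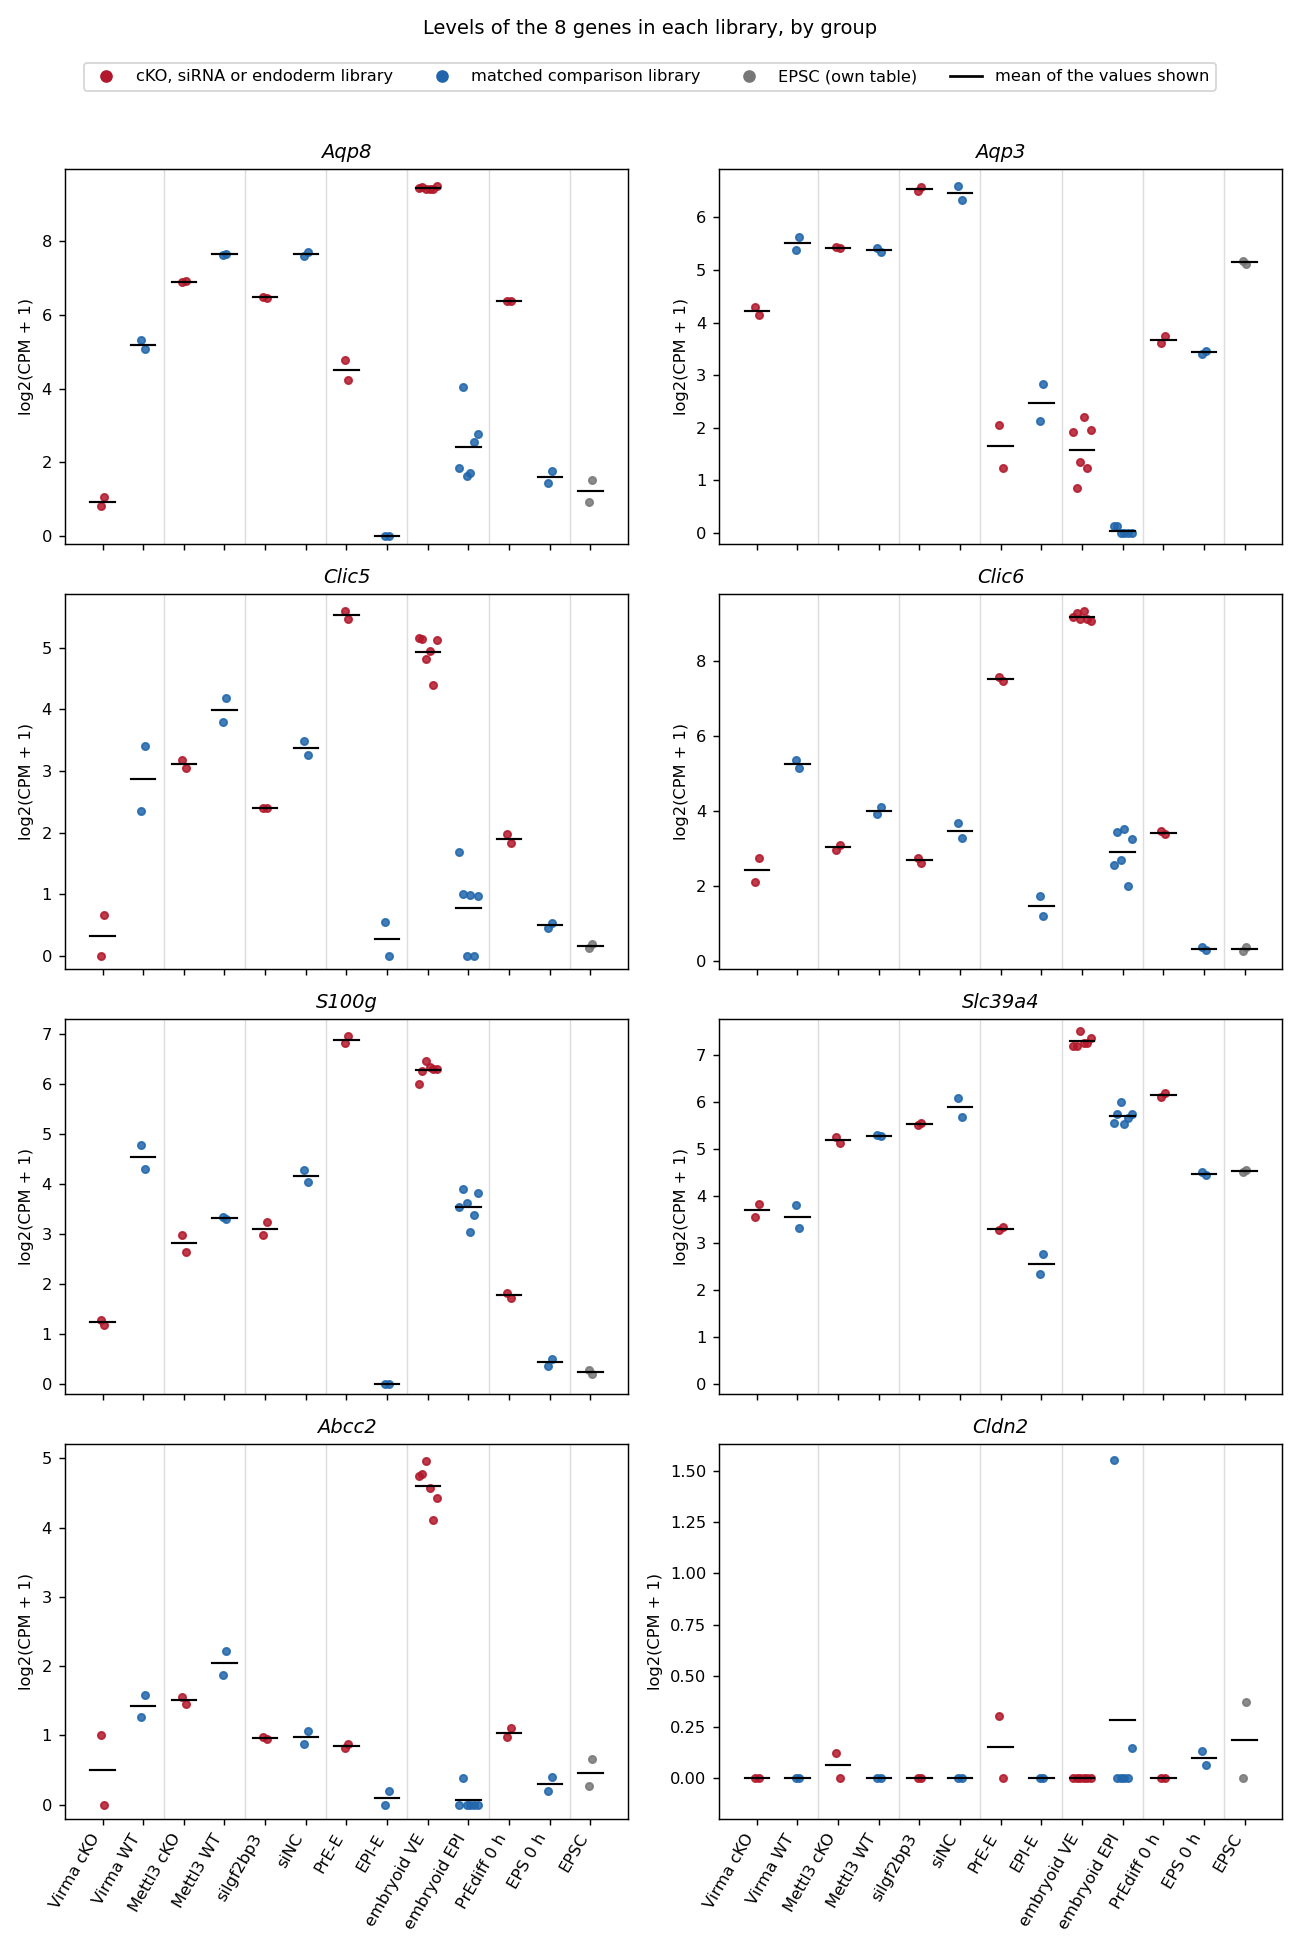
Levels of the 8 genes, as log2(CPM + 1), in each library (points) of 13 groups, with the mean of the plotted values as a bar. *Aqp8*, *Clic6* and *Abcc2* peak in the 6 embryoid VE libraries and *S100g* and *Clic5* in the 2 PrE-E libraries, while *Aqp3* lies at or below 3.60 CPM in every embryoid VE library. Tables were scaled separately.

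The 13 groups without transcription block or at 0 h can be put in order for each gene, but they come from tables scaled separately, so the order across tables is a description. Among the 12 pairs of neighbours in the order, the ranges over libraries overlapped in 4 pairs for *Aqp8*, 3 for *Aqp3*, 6 for *Clic5*, 5 for *Clic6*, 2 for *S100g*, 4 for *Slc39a4*, 8 for *Abcc2* and 12 for *Cldn2*. For *Aqp8*, embryoid VE was followed by siNC, with 192 and 208 CPM, and *Mettl3* WT, at 199 ± 3.66 CPM, which overlapped, then by *Mettl3* cKO at 118 ± 2.04, siIgf2bp3 at 87.6 ± 0.655, PrEdiff at 0 h at 81.8 ± 0.404, *Virma* WT at 35.7 ± 4.33 and PrE-E at 22.2 ± 6.10 CPM (SD, n = 2 each). Below these stood embryoid EPI, EPS at 0 h, EPSC, *Virma* cKO and EPI-E, where each overlapped the next apart from *Virma* cKO and EPI-E. For *S100g* the order began with PrE-E at 118 ± 7.71 CPM, embryoid VE at 76.8 ± 7.63 CPM and *Virma* WT at 22.5 ± 5.33 CPM, none of which overlapped. For *Aqp3* it began with siIgf2bp3 at 92.1 ± 3.10 CPM and siNC at 87.4 ± 11.5 CPM, which overlapped, and ended with PrE-E at 2.26 ± 1.28, embryoid VE at 2.16 ± 1.07 and embryoid EPI at 0.0332 ± 0.0514 CPM.

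Per kb of exon, which allows genes to be compared, *Aqp8* had the highest level of the members in embryoid VE, at 436 CPM per kb. There, *S100g* stood at 160, *Clic6* at 147 and *Slc39a4* at 50.2 CPM per kb, and *Clic5*, *Abcc2* and *Aqp3* at 3.40, 2.77 and 1.18 CPM per kb. In PrE-E the order differed. *S100g* led at 245 CPM per kb, followed by *Clic6* at 46.2 and *Aqp8* at 14.1, and *Slc39a4* stood at 2.85 CPM per kb.

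Over the 13 groups, the members that followed each other most closely were *Clic6* and *S100g*, with a Pearson r of 0.92 of group means of log2(CPM + 1), and *Clic5* and *S100g*, with r = 0.90. *Aqp3* followed none of them, with r between -0.31 and 0.27 against the 6 other members that had more than a few counts. Among 10874 genes that reached 10 CPM in at least one group, the 3 with the pattern most like *Aqp8* were *Mogat2*, *Ubash3b* and *Slc44a3* (r = 0.96, 0.96 and 0.94). For *S100g* they were *Dab2*, *Myo6* and *Habp2* (0.96, 0.95 and 0.95), and for *Clic5* they were *Habp2*, *Foxa2* and *P3h2* (0.98, 0.98 and 0.98). *Clic6* was most like *Cndp2*, *Lrpap1* and *Eml1* (0.97, 0.97 and 0.96), *Slc39a4* like *Nicn1*, *Abhd14b* and *Gde1* (0.98, 0.97 and 0.97), *Abcc2* like *Rdh10*, *Fgb* and *Cltrn* (0.94, 0.91 and 0.90), and *Aqp3* like *Otud1*, *Lrrc20* and *Efnb3* (0.96, 0.96 and 0.96). Groups of one table share its libraries' scaling, and with few points and many genes high values are common.

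CD140+ cells were compared with CD140- cells, both sorted after induction, to see what sorted endoderm-like cells express. For *Aqp8* the 2 fractions did not bracket the unsorted induced control groups. It averaged 22.2 CPM in PrE-E and 0 in EPI-E, but 35.7 to 200 CPM in those groups, from tables scaled separately. Means of *Aqp3*, *Slc39a4* and *Abcc2* in those groups also lay above both fractions. Those of *Clic5*, *Clic6* and *S100g* lay between the fractions. *S100g*, for example, averaged 118 CPM in PrE-E, 0 in EPI-E and 2.40 to 22.5 CPM in the control groups. The reason was not tested. Water channels came first. *Aqp8* had 26.5 and 17.9 CPM in PrE-E libraries and 0 counts in both EPI-E libraries, so it was at least 104-fold higher in PrE-E, taking 3 counts in each EPI-E library as the floor. *Aqp3* had 3.16 and 1.35 CPM in PrE-E and 3.38 and 6.09 CPM in EPI-E libraries, a log2 difference of -1.03 ± 0.69 (SE). *Aqp8* was thus found on the CD140+ side alone, while the *Aqp3* ranges lay close together with PrE-E below EPI-E.

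*Clic5* had 47.2 and 43.3 CPM in PrE-E and 0.464 and 0 CPM in EPI-E libraries (log2 difference 6.87 ± 0.48, or 8.30 without EPI-E replicate 1 and 6.24 without EPI-E replicate 2). *Clic6* had 188 and 174 CPM in PrE-E and 2.32 and 1.29 CPM in EPI-E libraries (6.52 ± 0.20). *S100g* had 112 and 123 CPM in PrE-E and 0 counts in both EPI-E libraries, at least 551-fold higher. All of these groups were far apart. The zinc importer *Slc39a4* had 8.64 and 9.08 CPM in PrE-E and 4.04 and 5.78 CPM in EPI-E libraries (0.84 ± 0.44), and the pump *Abcc2* had 10 and 13 counts in PrE-E against 0 and 2 counts in EPI-E libraries, a ratio of 11.4 with an exact 95% interval of 2.82 to 99.7 that covers counting error only. *Cldn2* had 3 and 0 counts in PrE-E and none in EPI-E.

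In all, 4 of the 7 members tested, *Aqp8*, *Clic5*, *Clic6* and *S100g*, were past the threshold of 0.05 on the adjusted p of edgeR's quasi-likelihood test, all higher in PrE-E, where 28.3% of 12423 genes were called higher and 57.7% were called in either direction. Since the members were picked with such values in view, nothing is read from that share. Trophoblast and gut markers summed to at most 18.7 and 5.50 CPM in any of these libraries. Feeder fibroblast markers summed to 332 to 343 CPM in PrE-E and 148 to 154 CPM in EPI-E libraries, with 5 of 8 tested higher in PrE-E, and their part in the differences was not tested.

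The embryoids gave another comparison of endoderm with epiblast, between parts of an assembled structure, with 6 libraries on each side. *Aqp8* ranged from 675 through a median of 684 to 716 CPM in VE libraries, and from 2.11 through 3.74 to 15.5 CPM in EPI libraries (log2 difference 6.95 ± 0.38, or 7.57 without EPI replicate 2). The groups were separated by a wide gap even though EPI replicate 2, at 15.5 CPM, stood above the other EPI libraries. *Aqp3* had 6 to 27 counts in each VE library and 2 counts over all 6 EPI libraries, too few for the filter of the test, with a ratio of counts of 68.7 (exact 95% interval 18.5 to 575). Even in VE it did not pass 3.60 CPM.

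*Clic6* ranged from 533 through 561 to 639 CPM in VE and from 3.02 through 6.97 to 10.4 CPM in EPI libraries (log2 difference 6.33 ± 0.18). *Clic5* ranged from 19.9 through 31.7 to 34.6 CPM in VE and from 0 through 0.972 to 2.23 CPM in EPI libraries (4.83 ± 0.52). Neither pair of ranges overlapped. *S100g*, at 0 counts in EPI-E, was present in every embryoid EPI library: it ranged from 63.4 through 77.6 to 86.5 CPM in VE and from 7.21 through 10.9 to 13.98 CPM in EPI libraries (2.79 ± 0.15). Here, too, all VE libraries lay above all EPI libraries.

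*Slc39a4* ranged from 144 through 151 to 181 CPM in VE and from 45.4 through 51.2 to 62.8 CPM in EPI libraries, a log2 difference of 1.59 ± 0.09. The ranges did not overlap, and every EPI library held the gene. *Abcc2* ranged from 16.2 through 24.2 to 30.1 CPM in VE libraries and had 3 counts in EPI replicate 2 and none in the other 5 EPI libraries (ratio 493, exact 95% interval 168 to 2393). *Cldn2* had 0 counts in all 6 VE libraries, where 3 counts would be 0.358 to 0.422 CPM, and 20 of its 21 EPI counts came from EPI replicate 1. All 6 members tested were called higher in VE, where 34.5% of 11254 genes were called higher, 38% lower and 72.5% in either direction.

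**Figure D2:**
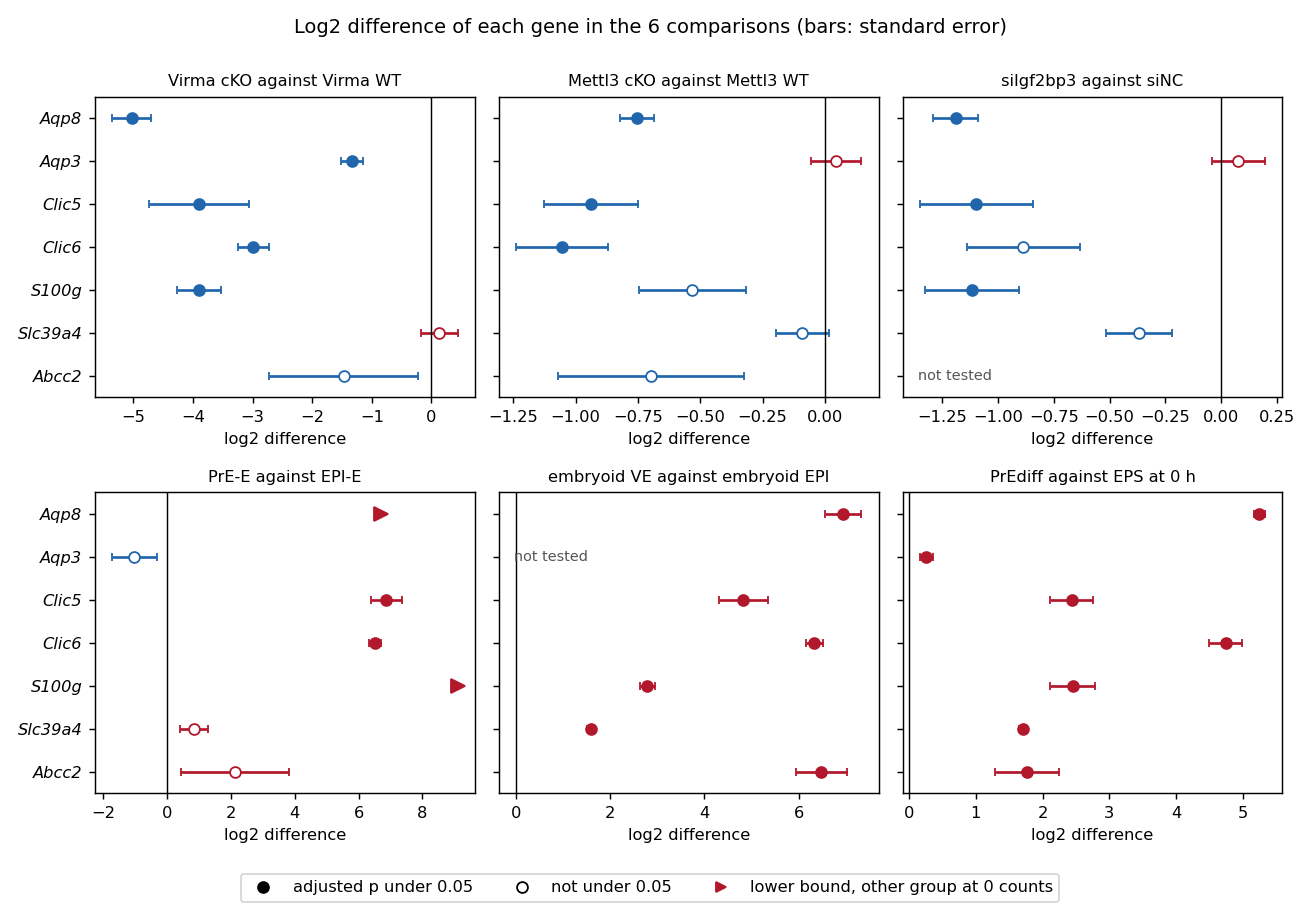
Log2 difference (x axis) of 7 members in 6 comparisons, each as the first-named group minus the second, with the standard error as a bar; x axes differ between panels. Filled points passed an adjusted p of 0.05, and arrowheads are lower bounds for *Aqp8* and *S100g*, which had 0 counts in EPI-E. *Aqp3* lies near 0 in the *Mettl3* and siIgf2bp3 panels, where *Aqp8*, *Clic5* and *Clic6* lie between -0.75 and -1.19.

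In unsorted cultures, PrEdiff cells at 0 h of actinomycin D were compared with EPS cells. *Aqp8* had 82.1 and 81.6 CPM in PrEdiff and 1.71 and 2.38 CPM in EPS libraries (log2 difference 5.25 ± 0.09). *Aqp3* had 11.2 and 12.3 CPM in PrEdiff and 9.53 and 10.1 CPM in EPS libraries (0.26 ± 0.10), the smallest difference among the members. It lost its call without EPS replicate 1, without PrEdiff replicate 2 and with DESeq2.

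*Clic5* had 2.93 and 2.56 CPM in PrEdiff and 0.380 and 0.457 CPM in EPS libraries (2.43 ± 0.32), and *Clic6* had 9.92 and 9.46 CPM in PrEdiff and 0.285 and 0.229 CPM in EPS libraries (4.74 ± 0.24). *S100g* had 2.51 and 2.30 CPM in PrEdiff and 0.285 and 0.412 CPM in EPS libraries (2.45 ± 0.34). The calcium binder and both CLIC genes were thus low in both states, but the states did not overlap. *Slc39a4* had 67.6 and 71.6 CPM in PrEdiff and 21.8 and 20.7 CPM in EPS libraries (1.71 ± 0.05), and *Abcc2* had 18 and 22 counts in PrEdiff and 3 and 7 counts in EPS libraries (1.77 ± 0.48). All 7 members tested were called higher in PrEdiff, where 37.6% of 14127 genes were called higher, 42.9% lower and 80.5% in either direction. Markers of primitive and visceral endoderm summed to 1088 to 1099 CPM in PrEdiff and 45.6 to 45.7 CPM in EPS libraries, and pluripotency markers to 849 to 865 CPM in PrEdiff and 2874 to 2884 CPM in EPS libraries. Parietal endoderm markers summed to 2921 to 2924 CPM in PrEdiff and 367 to 373 CPM in EPS libraries, with 6 of 6 higher in PrEdiff.

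VIRMA is a scaffold of the m6A writer complex. Induced *Virma* cKO cells, in which *Virma* RNA was lower but not absent, were compared with WT cells. Of the 7 members tested, 5 were called lower in *Virma* cKO, where 18.0% of 13113 genes were called lower. They were *Aqp8*, *Aqp3*, *Clic5*, *Clic6* and *S100g*. *Aqp8* had 0.754 and 1.10 CPM in *Virma* cKO and 38.8 and 32.7 CPM in WT libraries (log2 difference -5.03 ± 0.33). *Aqp3* had 18.7 and 16.6 CPM in *Virma* cKO and 40.7 and 48.4 CPM in WT libraries (-1.33 ± 0.19). Both water channels were lower without any overlap, *Aqp8* by far the more.

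*Clic5* had 0 and 7 counts in *Virma* cKO and 41 and 110 counts in WT libraries (-3.90 ± 0.83), and it was not called with DESeq2. Without 1 library its value ran from -5.30 (without cKO replicate 2) to -3.19 (without WT replicate 2), and was -3.20 without cKO replicate 1. *Clic6* had 3.27 and 5.73 CPM in *Virma* cKO and 39.5 and 34.2 CPM in WT libraries (-2.99 ± 0.26). *S100g* had 1.42 and 1.26 CPM in *Virma* cKO and 26.3 and 18.7 CPM in WT libraries (-3.90 ± 0.37). The WT libraries differed widely from each other for *Clic5*, but for none of these 3 genes did they overlap the cKO libraries. *Slc39a4* had 10.8 and 13.1 CPM in *Virma* cKO and 12.9 and 8.97 CPM in WT libraries (0.13 ± 0.31), and its ranges overlapped. *Abcc2* had 12 and 0 counts in *Virma* cKO and 14 and 23 counts in WT libraries (-1.47 ± 1.25, or -3.39 without cKO replicate 1 and -0.67 without cKO replicate 2), and *Cldn2* had none.

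In this comparison 18.0% of 13113 genes were called lower and 33.2% in either direction. All 10 endoderm markers tested were lower too, with a median log2 difference of -4.12 and sums of 218 to 232 CPM in *Virma* cKO and 3329 to 3462 CPM in WT libraries. All 10 feeder fibroblast markers were higher, with sums of 2116 to 2125 CPM in *Virma* cKO and 863 to 867 CPM in WT libraries. Of 8 pluripotency markers 5 were lower, with sums of 691 to 699.5 CPM in *Virma* cKO and 1044 to 1094 CPM in WT libraries. Of 6 parietal endoderm markers 3 were lower and 2 higher, with sums of 1201 to 1206 CPM in *Virma* cKO and 4219 to 4253 CPM in WT libraries. Of 3 gut markers tested 1 was higher, and the list summed to 35.7 to 41.4 CPM in *Virma* cKO and 15.9 to 17.6 CPM in WT libraries. The part of these shifts in the member differences was not tested. Scaling to library totals or to ribosomal protein genes moved the median of all genes to 0.20 and 0.42, in place of 0.02.

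The libraries labelled *Mettl3* cKO, whose *Mettl3* levels matched those of WT, had less *Aqp8*, *Clic5* and *Clic6* RNA. *Aqp8* had 116 and 119 CPM in *Mettl3* cKO and 196 and 202 CPM in WT libraries (log2 difference -0.75 ± 0.07). *Clic5* had 8.04 and 7.24 CPM in *Mettl3* cKO and 12.9 and 17.1 CPM in WT libraries (-0.94 ± 0.19), and *Clic6* had 6.80 and 7.47 CPM in *Mettl3* cKO and 13.96 and 16.1 CPM in WT libraries (-1.06 ± 0.18). These 3 were called lower, where 1.44% of 13115 genes were, and did not overlap, while the call of *Clic5* was lost without WT replicate 2. *Aqp3* had 42.2 and 41.7 CPM in *Mettl3* cKO and 41.5 and 39.7 CPM in WT libraries (0.05 ± 0.10).

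*S100g* had 6.89 and 5.25 CPM in *Mettl3* cKO and 9.09 and 8.83 CPM in WT libraries (-0.53 ± 0.22), and *Slc39a4* had 37.0 and 33.8 CPM in *Mettl3* cKO and 38.2 and 37.5 CPM in WT libraries (-0.09 ± 0.11). *Abcc2* had 22 and 15 counts in *Mettl3* cKO and 32 and 37 counts in WT libraries (-0.70 ± 0.37). None of these 4, counting *Aqp3*, passed the threshold. Both cKO values lay below both WT values for *S100g*, *Slc39a4* and *Abcc2*, and above them for *Aqp3*. With so few libraries, no direction is read from this. Of all 13115 genes 1.44% were called lower and 3.95% in either direction. Of the endoderm markers, 8 of 10 tested were lower (median -0.48) and summed to 3684 to 3752 CPM in *Mettl3* cKO and 5487 to 5582 CPM in WT libraries, and 9 of 10 feeder markers were higher, summing to 3005 to 3113 CPM in *Mettl3* cKO and 2073 to 2192 CPM in WT libraries. Their part was not tested.

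In the libraries labelled siIgf2bp3, *Aqp8* had 88.1 and 87.2 CPM, against 192 and 208 CPM in siNC libraries (log2 difference -1.19 ± 0.10). *Clic5* had 4.28 and 4.27 CPM in siIgf2bp3 and 10.2 and 8.60 CPM in siNC libraries (-1.10 ± 0.25), and *S100g* had 6.85 and 8.42 CPM in siIgf2bp3 and 18.3 and 15.4 CPM in siNC libraries (-1.12 ± 0.21). These 3 were called lower, where 4.52% of 12918 genes were, and did not overlap, though *Clic5* lost its call with DESeq2. *Clic6* had 5.75 and 5.07 CPM in siIgf2bp3 and 11.7 and 8.73 CPM in siNC libraries (-0.89 ± 0.25), and it was not called, though it was under 8 of the 9 alternatives that keep all libraries.

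*Aqp3* had 89.9 and 94.3 CPM in siIgf2bp3 and 95.5 and 79.3 CPM in siNC libraries (0.08 ± 0.12), and *Slc39a4* had 44.7 and 45.9 CPM in siIgf2bp3 and 66.5 and 50.5 CPM in siNC libraries (-0.37 ± 0.15). *Abcc2* had 8 and 8 counts in siIgf2bp3 and 7 and 9 counts in siNC libraries and was not tested. Of 12918 genes, 4.52% were called lower and 7.32% in either direction, and single libraries decided these counts. All calls numbered 945 with 4 libraries, 242 without siIgf2bp3 replicate 1, 315 without siIgf2bp3 replicate 2, 2424 without siNC replicate 1 and 4936 without siNC replicate 2, and the members called numbered 3, 1, 2, 3 and 5 in the same order. *Aqp8* was called in each.

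Log2 differences in this table followed the GC content of the transcript, with a Spearman rho of -0.47 across 12581 genes, which are not independent replicates. With a correction for GC content, chosen after seeing the data, *Aqp8* stood at -1.16, *Clic5* at -1.22, *Clic6* at -0.88 and *S100g* at -1.22. All 10 endoderm markers tested were lower (median -1.05), summing to 1673 to 1678 CPM in siIgf2bp3 and 3293 to 3581 CPM in siNC libraries, and 4 of 6 parietal endoderm markers were lower. Pluripotency markers summed to 2687 to 2733 CPM in siIgf2bp3 and 2205 to 2313 CPM in siNC libraries, with 4 of 8 higher, and 3 of 10 feeder markers were higher, with sums of 613 to 625 CPM in siIgf2bp3 and 534 to 696 CPM in siNC libraries. Parietal endoderm markers summed to 3166 to 3221 CPM in siIgf2bp3 and 8213 to 8895 CPM in siNC libraries. Mitochondrially encoded genes took 0.696% to 0.793% of counts in siIgf2bp3 and 0.389% to 0.538% in siNC libraries. The part of these shifts in the member differences was not tested.

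Other genes of the same kinds were counted in lists, assembled with earlier results of these data known. Their counts stand against the shares of all genes called higher and lower: 28.3% and 29.5% in PrE-E, 34.5% and 38% in embryoid VE, 37.6% and 42.9% in PrEdiff, 15.1% and 18% in *Virma* cKO, 2.51% and 1.44% in *Mettl3* cKO, and 2.79% and 4.52% in siIgf2bp3. In embryoids, 20 of 21 other solute carriers tested were higher in VE and 1 was lower (median 2.43, all genes -0.05). *Slc2a3*, a glucose transporter, averaged 1130.1 ± 45.9 CPM in VE and 209 ± 14.3 CPM in EPI libraries (SD, n = 6 each; log2 difference 2.43 ± 0.05, adjusted p 4.51e-20). The iron exporter *Slc40a1* averaged 285 ± 23.4 CPM in VE and 16.4 ± 3.61 CPM in EPI libraries (4.10 ± 0.12), and the glucose transporter *Slc2a1*, the 1 lower, averaged 153 ± 13.5 CPM in VE and 477 ± 24.7 CPM in EPI libraries (-1.64 ± 0.06). In PrE-E, 11 of 18 solute carriers were higher and 1 lower (median 1.65, all genes -0.03), again *Slc2a1*. In PrEdiff, 12 of 22 were higher and 8 lower, and there *Slc2a1* was higher, at 499.9 ± 14.4 CPM in PrEdiff and 131 ± 4.35 CPM in EPS libraries (n = 2 each; 1.94 ± 0.03). In *Virma* cKO the same list had 4 higher and 3 lower of 21 (median -0.22, all genes 0.02). Few other aquaporins had enough counts to be tested. In embryoid VE 1 was higher and 1 lower of 2 (median -1.02), and in PrEdiff 4 were higher and 1 lower of 6 (median 0.93). In PrE-E 0 were tested. None was called of 1 in *Virma* cKO, 2 in *Mettl3* cKO and 3 in siIgf2bp3.

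Of the other chloride channel genes, 8 of 12 tested were higher in PrE-E and 8 of 13 in embryoid VE, with none lower, 9 of 14 were higher and 4 lower in PrEdiff, and 4 of 12 were lower and none higher in *Virma* cKO, where library-total scaling gave 1 lower, DESeq2 gave 2 lower, and ribosomal scaling gave 2 higher and 1 lower. *Clcn5*, an endosomal chloride and proton exchanger, averaged 298 ± 18.8 CPM in PrE-E and 25.3 ± 0.0862 CPM in EPI-E libraries (n = 2 each, log2 difference 3.55 ± 0.10), and 28.2 ± 2.26 CPM in *Virma* cKO and 65.7 ± 13.5 CPM in WT libraries (-1.21 ± 0.16, adjusted p 2.85e-07). *Clic1*, a close relative of *Clic5*, averaged 79.4 ± 4.06 CPM in siIgf2bp3 and 120 ± 0.813 CPM in siNC libraries (-0.59 ± 0.10, adjusted p 0.0105).

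Genes for calcium handling and S100 proteins had 5 of 9 tested higher in PrE-E, 6 higher and 1 lower of 7 in embryoid VE, and 10 higher and 2 lower of 12 in PrEdiff. *S100a1* averaged 496 ± 42.5 CPM in embryoid VE and 11.7 ± 3.76 CPM in EPI libraries (SD, n = 6 each; 5.39 ± 0.15), and the plasma membrane calcium pump *Atp2b1* averaged 850 ± 6.16 CPM in PrE-E and 83.8 ± 4.36 CPM in EPI-E libraries (n = 2 each; 3.34 ± 0.07). *Atp2b1* also averaged 126 ± 6.77 CPM in *Virma* cKO and 308 ± 0.0799 CPM in WT libraries (-1.29 ± 0.08, adjusted p 5.44e-15). In libraries labelled *Mettl3* cKO, *S100a10* was lower (-0.35 ± 0.09) and *S100a6* and *S100a11* were higher (0.53 ± 0.09 and 0.33 ± 0.09), so the family did not move one way. Without *Mettl3* cKO replicate 2, and likewise with DESeq2, 1 gene of the list was called.

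Among other zinc transporters and metallothioneins, 14 of 21 were higher and 2 lower in embryoid VE, and 8 higher and 4 lower of 20 in PrE-E, and 15 higher and 5 lower of 23 in PrEdiff. *Slc39a8*, a zinc importer related to *Slc39a4*, averaged 98.8 ± 13.4 CPM in PrE-E and 2.92 ± 0.284 CPM in EPI-E libraries (5.02 ± 0.20), whereas *Slc39a4* differed little there. In *Virma* cKO, *Slc39a8* averaged 0.924 ± 0.123 CPM, against 6.95 ± 2.93 CPM in WT libraries (-2.69 ± 0.62, adjusted p 0.000357), and the list had 4 higher and 2 lower of 20, or 11 higher and 1 lower with ribosomal scaling and 1 higher and 2 lower with DESeq2.

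Claudins and tight junction genes had 4 higher and 4 lower of 12 in PrE-E, 6 higher and 2 lower of 13 in embryoid VE, and 13 higher and 3 lower of 16 in PrEdiff. *Cldn6*, a claudin of embryonic epithelia, averaged 2668 ± 85.4 CPM in embryoid VE and 239 ± 13.3 CPM in EPI libraries (SD, n = 6 each; 3.48 ± 0.04), and 30.8 ± 2.74 CPM in siIgf2bp3 and 54.4 ± 3.25 CPM in siNC libraries (n = 2 each; -0.81 ± 0.13, adjusted p 0.00662). ABC transporters other than *Abcc2* had 6 higher and 2 lower of 10 in *Virma* cKO, where 3 higher and 2 lower were left without WT replicate 2, 4 higher and 3 lower of 9 in embryoid VE, and 5 higher and 5 lower of 10 in PrEdiff. Brush border genes had 6 higher and 2 lower of 9 in embryoid VE, 8 higher and 4 lower of 13 in PrEdiff, and 4 higher and 2 lower of 10 in *Virma* cKO, or 2 higher and 1 lower without cKO replicate 1. The microvillar scaffold gene *Pdzk1* averaged 31.6 ± 3.62 CPM in embryoid VE and 0.193 ± 0.346 CPM in EPI libraries (6.32 ± 0.52).

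The endocytic receptor complex of megalin (*Lrp2*), cubilin (*Cubn*), amnionless (*Amn*) and the adaptor *Dab2* is also part of the endoderm marker list. All 4 genes were higher in PrE-E, embryoid VE and PrEdiff, with medians of 7.92, 5.09 and 3.14, and all 4 were lower in *Virma* cKO, *Mettl3* cKO and siIgf2bp3, with medians of -4.61, -0.65 and -1.01. The medians of the members in those 6 comparisons were 6.52, 5.58, 2.43, -2.99, -0.70 and -0.99, over the members tested in each; with *Aqp8* and *S100g* at their lower bounds the first is unchanged.

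**Figure D3:**
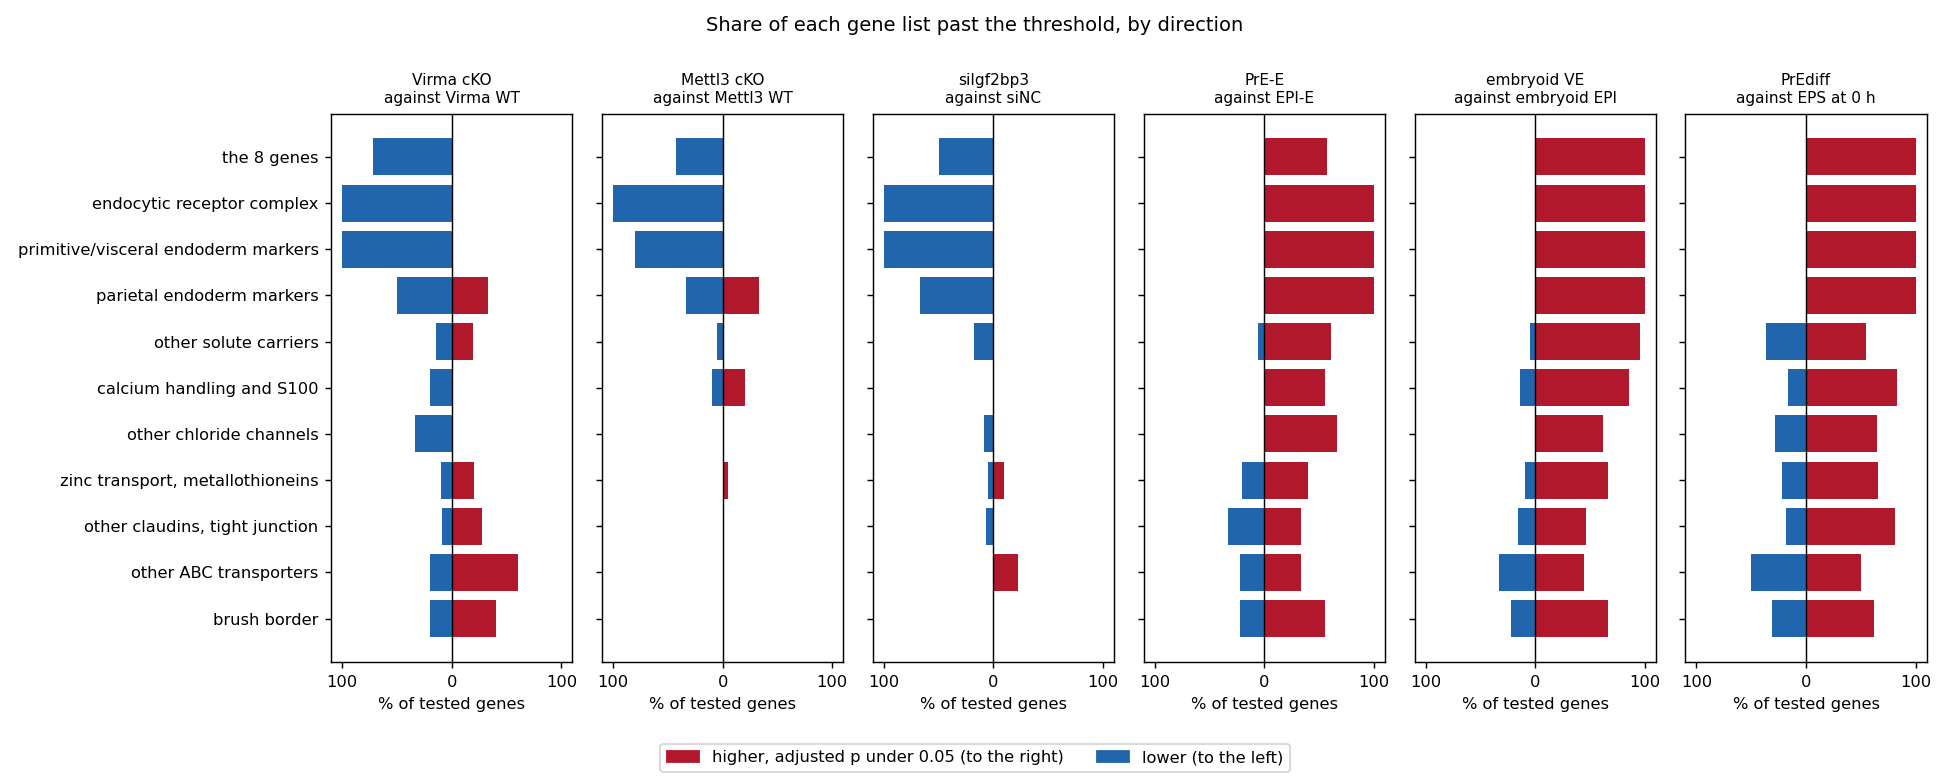
Percent of the tested genes of each list shown past an adjusted p of 0.05, higher to the right and lower to the left, in the 6 comparisons. The other aquaporins are not drawn. The endocytic complex fills the bar in every panel, the tested members do so in embryoid VE and PrEdiff, and in *Virma* cKO the solute carrier, zinc, claudin, ABC and brush border lists have genes on both sides.

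Actinomycin D was used to follow RNA after transcription stops, and a slope per hour was fitted for each state. Every library was scaled to its own counts, so a slope is relative to the average transcript: a positive one means that the RNA was lost more slowly than average. Replicates of this table differed little more than sequencing alone would give (a chi-square of 1.19 to 1.30 for each degree of freedom), so they carry little spread beyond that of sequencing. In EPS cells 4 of 7 members had a positive slope past the threshold of edgeR's quasi-likelihood test, where 18.2% of 14127 genes had one and 36.7% were called in either direction. In PrEdiff cells 2 of 7 did, where the shares were 20.3% and 36.9%. Since the members were chosen with these libraries in view, nothing is read from how their counts stand to the shares. These counts depend on the times used: without the 3 h libraries 9442 genes in EPS and 8381 in PrEdiff were called, in place of 5180 and 5210, and 6 members were called in PrEdiff. Leaving out PrEdiff 0 h replicate 1 or 2 lowered the PrEdiff count to 3182 or 3150.

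*Slc39a4* had 67.6 and 71.6, 80.7 and 80.7, 106 and 102, and 129 and 131 CPM at 0, 1, 2 and 3 h in PrEdiff cells. Its share of the counts thus grew at every time, with a slope of 0.31 ± 0.03 log2 per hour (adjusted p 5.03e-06). In EPS cells it had 21.8 and 20.7, 23.2 and 23.4, 30.5 and 27.2, and 28.0 and 27.2 CPM, with a slope of 0.14 ± 0.03 (adjusted p 0.00283). *Aqp3* had 11.2 and 12.3, 14.6 and 13.8, 17.2 and 18.2, and 19.9 and 19.9 CPM in PrEdiff cells (slope 0.26 ± 0.05, adjusted p 0.00108). In EPS cells *Aqp3* had 9.53 and 10.1, 12.2 and 12.6, and 15.6 and 15.9 CPM at 0, 1 and 2 h and averaged 12.8 ± 0.167 CPM (SD, n = 2) at 3 h (0.15 ± 0.05, adjusted p 0.0300), so the rise ended at 2 h there.

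*Aqp8* had 82.1 and 81.6, 90.8 and 89.4, 103 and 108, and 107 and 111 CPM in PrEdiff cells (slope 0.15 ± 0.06, adjusted p 0.0662). In EPS cells it had 36 and 52, 77 and 71, 64 and 73, and 83 and 79 counts (0.28 ± 0.08, adjusted p 0.00697), with most of the change in the first hour. *Clic6* had only 2 to 19 counts per EPS library, and its slope there (0.45 ± 0.15, adjusted p 0.0105) rests on the 3 h libraries, since it was 0.14 with an adjusted p of 0.575 without them and missed the threshold without EPS 3 h replicate 1 (adjusted p 0.0728). In PrEdiff cells its slope was 0.07 ± 0.08.

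*S100g* had 6 and 9, 14 and 7, 20 and 19, and 9 and 7 counts in EPS cells at 0, 1, 2 and 3 h, a hump that a straight line does not follow (slope 0.17 ± 0.19, adjusted p 0.416, and 0.83 without the 3 h libraries, adjusted p 0.000127). In PrEdiff cells its slope was 0.22 ± 0.13 (adjusted p 0.169), *Clic5* had -0.12 ± 0.07 (0.178) and *Abcc2* -0.09 ± 0.14 (0.602). In EPS cells *Clic5* had -0.17 ± 0.13 (adjusted p 0.312) and *Abcc2* 0.05 ± 0.25 (0.824). *Clic5* was the single member whose slope was below 0 in both states.

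**Figure D4:**
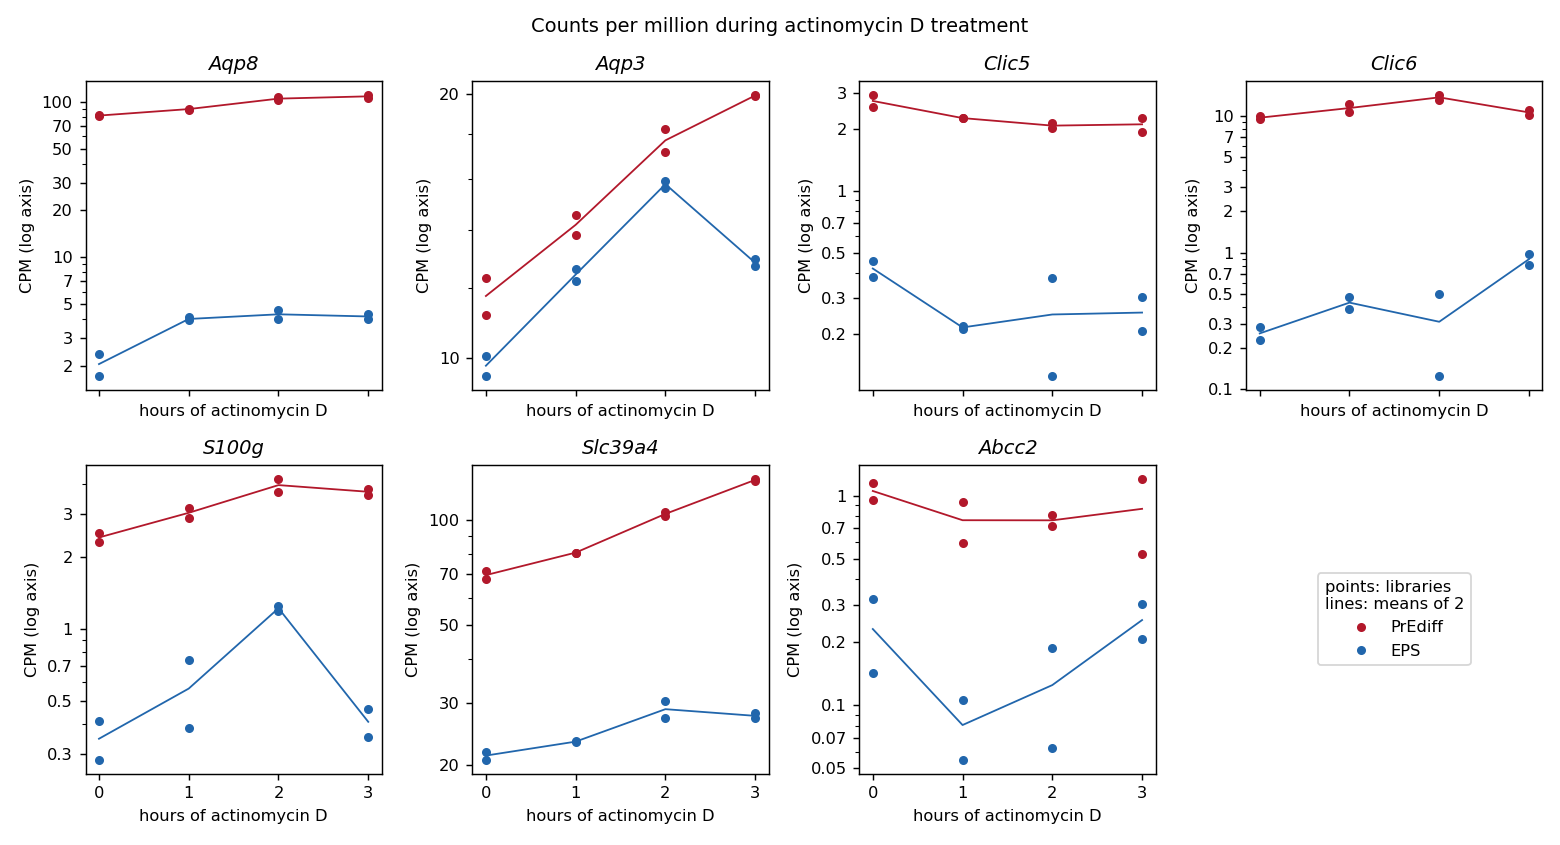
CPM on a log axis (axes differ) at 0 to 3 h of actinomycin D in PrEdiff (red) and EPS (blue) libraries, with a line through the means of 2. *Slc39a4* and *Aqp3* climb through 3 h in PrEdiff, while *Aqp3* and *S100g* turn down after 2 h in EPS.

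The difference between the slopes of the 2 states was called for 0 of 7 members by edgeR's quasi-likelihood test, where 1.27% of 14127 genes were called, 1.13% with the higher slope in PrEdiff. At an unadjusted p under 0.05 there were 2, and DESeq2 called 1. The count over all genes, 180, was 89 to 105 without any one of the libraries at 3 h or at PrEdiff 0 h, and 926 without all 3 h libraries. That gene was *Slc39a4*, with a difference of PrEdiff minus EPS of 0.16 ± 0.05 log2 per hour (adjusted p 0.110 with edgeR, 0.0239 with DESeq2, and 0.0322 with edgeR without EPS 2 h replicate 1). *Clic6* had -0.38 ± 0.18 (adjusted p 0.243), *Aqp8* -0.14 ± 0.10 (0.596, or -0.38 with 0.0392 without the 3 h libraries) and *Aqp3* 0.11 ± 0.07 (0.611). *Clic5*, *S100g* and *Abcc2* had 0.05 ± 0.15, 0.05 ± 0.23 and -0.14 ± 0.29.

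No scaling used here measures the fall of the whole RNA pool. Scaled to library totals in place of TMM, the median slope of all genes was -0.05 in EPS and -0.12 in PrEdiff cells, and genes called numbered 476 higher and 3910 lower in EPS, and 533 higher and 4805 lower in PrEdiff, in place of 2570 and 2610, and 2867 and 2343. On that scale *Slc39a4* and *Aqp3* had positive slopes past the threshold in PrEdiff cells (0.16, adjusted p 0.000628, and 0.11, adjusted p 0.0244) and *Aqp8* and *Clic6* in EPS cells (0.18 and 0.37, adjusted p 0.0323 and 0.0321). *Aqp3* and *Slc39a4* in EPS cells did not (0.04 and 0.03, adjusted p 0.468 and 0.486).

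Another zinc transporter lost RNA faster than average in both states. *Slc30a1*, a zinc exporter, had a slope of -0.62 ± 0.04 log2 per hour in EPS (adjusted p 4.58e-08) and -0.29 ± 0.04 in PrEdiff cells (adjusted p 0.000148), and the difference of 0.33 ± 0.06 passed the threshold (adjusted p 0.0137). Its list had 4 positive and 4 negative slopes of 23 in EPS cells and 3 positive and 1 negative in PrEdiff cells, or 9 and 8, and 9 and 9, without the 3 h libraries.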

How the data were processed

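Total RNA was extracted with TRIzol and libraries were made with 2 kits and sequenced on an Illumina instrument, per the labels' protocols, and which kit made which library is not given in the sources used here. The authors deposited whole-number read counts per gene, one table per experiment; per the submitters' processing notes, the aligner was STAR 2.7.11b with build mm39, and FastQC 0.12.1, DESeq2, Subread and Trim Galore are also named. The annotation and strand setting are not given in the sources used here. Repeated symbols (19, in the EPSC table) were left out, and 0 columns were unused.

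The members and lists were chosen with earlier results of these data known. Counts were fitted over all genes of a table with edgeR 4.0.16 (R 4.3.3, limma 3.58.1; robust quasi-likelihood, TMM, filterByExpr with minimum count 10 and total 15, prior count 2, Benjamini-Hochberg, threshold 0.05). Actinomycin D slopes used time as a number. Named were all members, the targeted genes, up to 3 genes per list and comparison of lowest adjusted p whose groups do not overlap, and the 3 genes of highest correlation with each member. State markers, also in that rule, are given as the sums of their marker lists. Floors are 3 counts per library, and intervals are exact at 95%, for counting error only. Alternatives were other scalings, filters, DESeq2 1.42.0, the replicate block, time points and leaving out each library. GC correction was added after seeing the data. Scripts were tested on simulated data. Gene models and promoters are GRCm38.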

Additional observations from a re-analysis of the deposited data

Results flagged for a closer look

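In embryoid EPI, *Aqp8* stood at 15.5 CPM in replicate 2, against 2.11 to 5.76 CPM in the other 5 libraries, a sample far from the rest. The endoderm markers of that library summed to 628 CPM, the highest of the EPI libraries, and their part in the *Aqp8* value was not tested. *Abcc2* was at 0.306 CPM (3 counts) in the same library and at 0 in the other 5. *Cldn2* stood at 1.94 CPM (20 counts) in EPI replicate 1, against at most 0.107 CPM in the others. Of the groups of 6, 15 sets of member values were examined, and chance marks about 1 in 20 where values are normally distributed. Sets near 0 counts are not. A set with counts in a single library, as for *Abcc2*, is always marked, so nothing is read from that mark.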

How the results depend on the processing

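Of the alternative values for single members, 939 kept their direction and their side of the threshold, 29 came past it, 16 fell short of it and 18 reversed; the cause was not tested. Genes called in *Mettl3* cKO numbered 297 with ribosomal scaling and 212 with DESeq2. In siIgf2bp3 they numbered 1699 with no filter on low counts, 1467 with the replicate block, 2064 with GC correction and 2373 with GC correction and the block. Without the 3 h libraries, and with 3 h against 0 h alone, slopes called numbered 9442 and 10043 in EPS and 8381 and 9552 in PrEdiff, and slope differences 926 and 6268, with 519 by DESeq2. Members called numbered 2 in EPS with library totals, 6 and 4 in PrEdiff and 1 and 4 for the difference under those 2 time settings, and 1 for the difference with DESeq2.

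Leaving out one library gave 3355 to 3713 genes and 5 members in *Virma* cKO, 362 to 394 and 2 to 3 in *Mettl3* cKO, 242 to 4936 and 1 to 5 in siIgf2bp3, 6186 to 6831 and 4 in PrE-E, 8115 to 8220 and 6 to 7 in embryoid VE, and 10808 to 10920 and 6 to 7 in PrEdiff at 0 h. For slopes it gave 4263 to 5257 and 3 to 4 in EPS, 3150 to 5466 and 2 to 3 in PrEdiff, and 89 to 206 and 0 to 1 for the difference. With 1 library left in a group, that library is assumed to vary like the others.

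Reversed values were small or rested on few counts. *Slc39a4* in *Virma* cKO was -0.11 without WT replicate 2 and -0.02 without cKO replicate 2, and up to 0.40 without WT replicate 1. *Aqp3* was -0.0014 in *Mettl3* cKO with ribosomal scaling and -0.049 in siIgf2bp3 without siNC replicate 2 (0.19 without replicate 1). The *Abcc2* slope in EPS was -0.31 without 3 h libraries, -0.019 with library totals and -0.086 to 0.27 over the fits without a library, and the *Clic6* slope in PrEdiff was -0.077 with library totals. Slope differences without 3 h libraries were -0.13 for *Aqp3*, 0.061 for *Clic6*, -0.51 for *S100g*, -0.0085 for *Slc39a4* and 0.056 for *Abcc2*. With library totals they were -0.012 for *Clic5* and -0.0028 for *S100g*, and without a library -0.035 to 0.13 for *Clic5* and -0.12 to 0.16 for *S100g*, below 0 without EPS 0 h replicate 2 for *Clic5* and without either EPS 3 h library for *S100g*.

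Scaling to ribosomal protein genes split the calls into 4900 higher and 725 lower in *Virma* cKO, 4431 and 2776 in PrE-E, and 4977 and 3223 in embryoid VE; library totals gave 3001 and 1491 in *Virma* cKO. Same-numbered libraries did not deviate together (correlations -0.093 to 0.028), which does not settle whether the numbers pair samples. The replicate block gave 4 members in siIgf2bp3, in place of 3. Low counts limit *Cldn2*, *Abcc2* outside embryoid VE, and *Clic5*, *Clic6* and *S100g* in EPS.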
